A study of Homo sapiens with 2 samples.

Results

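The genes described here encode the proteins of the cytosolic ribosome, taken as every gene whose platform symbol is RPL or RPS with a number (suffixes A, L, X and Y allowed) or RPLP0, RPLP1, RPLP2 or RPSA, without the RPS6K kinases, RPS19BP1 and annotated pseudogenes. Of 20045 genes with a named probe, 78 met this rule, 28 of them named for the small (40S) subunit and 50 for the large (60S) subunit, with 127 probes in all. Detection required a p below 0.01 for the probe on either array, and a gene's value is that of its brightest detected probe. By this rule 73 of the 78 genes were detected, each on both arrays. RPL10, RPL22L1, RPL3L, RPL10L and RPS4Y2 were not detected. Some genes of the ribosome, among them RPLP0, RPSA and RPS27A, have no named probe in the annotation used and are not analysed here.

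The measurements come from HCT116, a human colorectal carcinoma cell line labelled p53+/+, grown in serum-containing medium. One culture at 80% confluence was given vehicle and the other SB590885, a small-molecule RAF kinase inhibitor, at 10 nM; the duration is not given in the sources used here. Both cultures share the cell line and the medium, and the labels name no genotype that differs between them. Each condition was read on 1 Illumina bead array, so the differences below have no replicate check, no p-value was computed, and each is a difference between these arrays. All 9 colon epithelial markers looked for were detected, against 1 of 8 leukocyte, 4 of 7 stromal and 1 of 7 endothelial or erythroid markers with a probe. On the vehicle array the epithelial markers ranged from 110.9 to 4420 units and the detected stromal markers from 110.3 to 170.7. The lowest detected vehicle intensity was 132.2, so the dimmest epithelial and the dimmest stromal marker were detected with SB590885 only. The leukocyte marker CD68 had 276.1 and 289.3 on the vehicle and SB590885 arrays.

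The cytosolic ribosome translates the mRNAs that the nucleus exports. Its small subunit reads the mRNA, its large subunit joins the amino acids, and each protein of either subunit is needed in a single copy, apart from the paired proteins of the stalk that recruits translation factors. The mRNAs of these proteins begin with a 5′ terminal oligopyrimidine tract, called TOP, a C followed by further C and T bases, through which mTOR signalling controls their translation more than their amount. RAF feeds the MEK, ERK and RSK kinases. RSK and the S6 kinases phosphorylate RPS6, and ERK signalling also reaches ribosome production through MYC.

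To show what these genes share in sequence, the 30 bases around the annotated transcript start, 10 before it and 20 from it, are given for members at both ends of the range of ratios and for the member at the top of the intensity scale. They are from RefSeq's promoter table (GRCh38.p14), 5′ to 3′ on the gene's strand. Capitals mark a run of at least 5 bases of C or T, counted from a C at most 5 bases from the start. The bases before that C can also be C or T, as in RPL14 and RPL34.
RPL36A: ctcgcggtttCTTTCTTTCCgcgccgatag
RPL4: cgggagtggtaagcaCTTCCTTTTCCTgtg
RPL7A: attccCTTTCCTTTCTCTCTCCTCCCgccg
RPS4X: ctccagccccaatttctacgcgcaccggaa
RPS21: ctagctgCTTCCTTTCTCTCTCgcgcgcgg
RPL14: ggtcttCTTCCTTCTCgcctaacgccgcca
RPL34: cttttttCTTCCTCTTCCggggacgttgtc
RPL41: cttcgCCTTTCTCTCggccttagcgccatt

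These stretches lie at chrX:101391001-101391030 (plus strand) for RPL36A, chr15:66504836-66504865 (minus) for RPL4, chr9:133348208-133348237 (plus) for RPL7A and chrX:72277229-72277258 (minus) for RPS4X. Those of RPS21, RPL14, RPL34 and RPL41 lie at chr20:62387093-62387122, chr3:40457329-40457358, chr4:108620566-108620595 and chr12:56116623-56116652, all on the plus strand. The table held 66 of the 78 genes and had no entry for RPL23, RPL23A, RPL30, RPL37, RPL39L, RPL3L, RPL5, RPL7, RPL8, RPS15A, RPS2 and RPS20. A pyrimidine run as defined above was found in 51 of the 66 promoters (77.3%), against 21.1% of 27305 promoters in the table. The 50 detected genes with a run had a median log2 ratio of -0.01, and the 12 without one had -0.03. RPS4X, without a run of that length, was among the lowest members, and the sequences show that both RPL36A and RPS21, at opposite ends of the range, carry one.

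Across the window from 250 bases before to 50 after the start, on either strand, the ETS-type motif CCGGAAG stood in 22 of 66 promoters (33.3%), against 10.7% of all. The YY1-type motif AAGATGGC stood in 7 (10.6% against 3.03%), the TATA motif TATAAA in 6 (9.09% against 11.95%) and the E-box CACGTG in 4 (6.06% against 7.43%). Genes with CCGGAAG had a median log2 ratio of -0.004 (22 detected) and those without it -0.015 (40 detected). These are letter matches in 1 window and not measured binding sites.

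As a group the ribosomal protein genes differed little between the arrays. Their median log2 ratio, SB590885 over vehicle, was -0.02, with 33 genes higher and 40 lower. At the second brightest probe, which 32 members have, the median was 0.06, with 18 genes higher. At their brightest probes the same 32 genes had a median of 0.004, with 16 higher. The 10430 detected genes of the whole array had a median of -0.0008, with 49.8% higher and 50.1% lower. Of the 73 members, 45.2% were higher, and the exact 95% binomial interval of that share, 33.5% to 57.3%, covers counting of genes only. The quartiles of the members' ratios were -0.06 and 0.06. Within 1.2-fold of the vehicle value lay 67 of 73 (91.8%), and within 1.1-fold 51 (69.9%), while 51.3% of all detected genes were within 1.1-fold.

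By a rule of size at 1.2-fold, 2 members were higher (2.74%) and 4 lower (5.48%), where 10.4% of all detected genes were higher and 10.5% lower. At 1.5-fold no member was higher and 1 was lower, against 1.51% and 1.16% of all detected genes. None reached 2-fold, against 0.249% higher and 0.134% lower. With background correction of the same values the 1.2-fold rule gave 2 higher and 6 lower, against 20.3% and 21.1% of all genes, and the 1.5-fold rule 0 and 1, against 5.16% and 4.62%. The comparison is not at like intensity, since most members have bright probes. From 1000 to 5000 units 14.3% of 14 members were higher and 14.3% lower by 1.2-fold, against 13.9% and 16.9% of 1252 other genes. From 5000 to 10000 the shares were 0% and 6.67% of 15 members, against 8.47% and 11.9% of 118 other genes. At 10000 and over they were 0% and 0% of 37 members, against 2.38% and 7.14% of 42. Under 1000 they were 0% and 14.3% of 7 members, against 10.1% and 9.61% of 8945. No difference was tested.

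**Figure D1:**
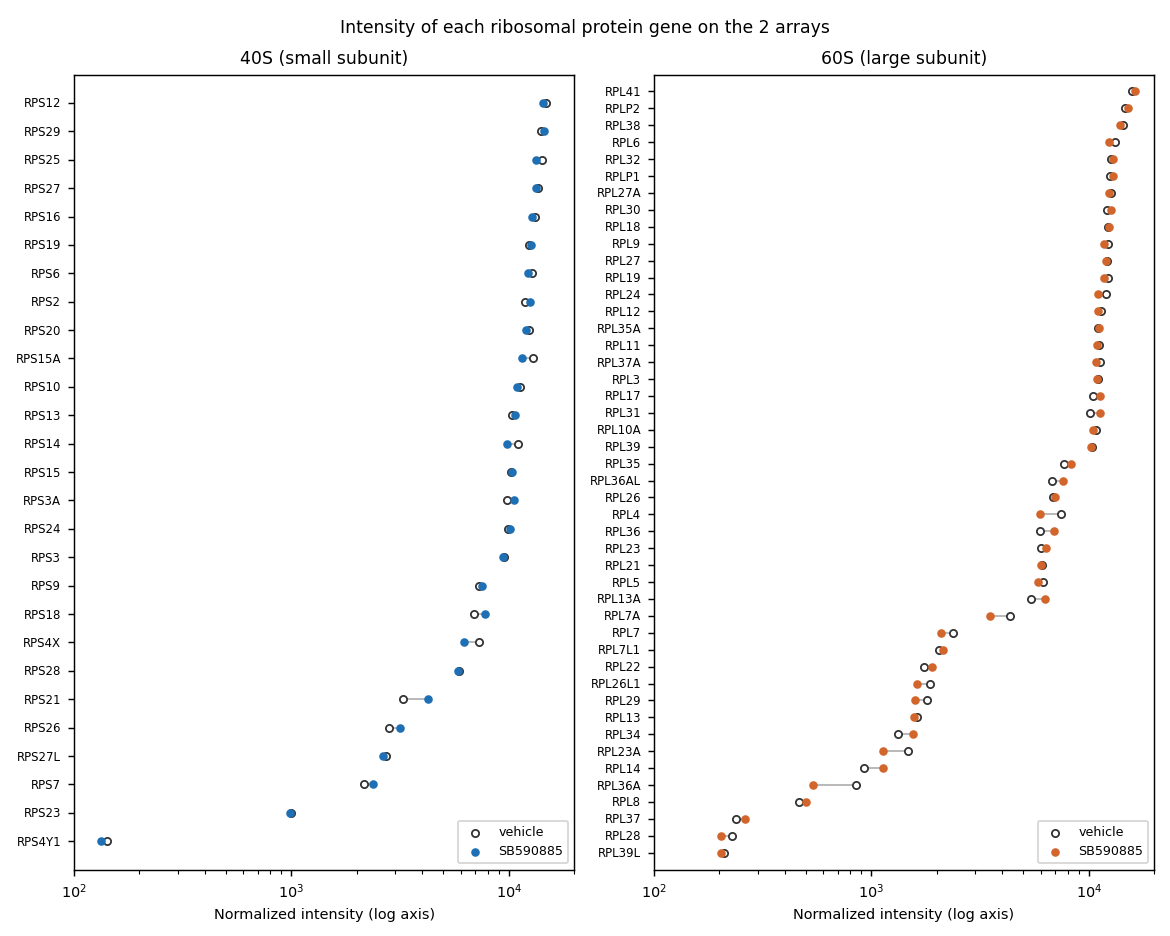
Normalized intensity (log axis) of the brightest detected probe of each of the 73 genes on the vehicle array (open circles) and the SB590885 array (filled circles), with 27 genes of the 40S subunit on the left and 46 of the 60S subunit on the right, 1 array per condition. Most pairs of circles touch, and the widest gap is that of RPL36A, from 854.8 to 537.3.

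Most members lay near the top of the intensity scale. Of the 73 genes, 52 had over 5000 units on both arrays. Members made up 39 of the 100 genes with the brightest probes and 24 of the first 50. These positions describe probes and do not rank the transcripts against each other. The probes of RPL41 (15704 with vehicle, 16333 with SB590885), RPLP2 (14694 and 15189), RPS12 (14821 and 14363), RPS29 (14022 and 14423) and RPL38 (14363 and 13878) were the 5 brightest. RPL41 is the shortest of these proteins, and RPS12 and RPS29 belong to the head of the small subunit. None of the 5 differed by more than 0.06 on the log2 scale.

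At the other end, 5 members were measured by dim probes. RPS4Y1, a Y-linked copy of RPS4X, had 142.2 with vehicle and 133.2 with SB590885. RPL28 had 228.7 and 202.8, RPL39L, a copy of RPL39 best known from testis, 210.8 and 204.5, RPL37 237.9 and 263.5, and RPL8 467.6 and 500.5. Their log2 ratios ran from -0.17 to 0.15, in intensities that still hold background. With background correction RPL28 had -0.32, RPS4Y1 -0.32 and RPL37 0.24.

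The summed intensity of the members' probes was 8.15% of that of all detected genes with vehicle and 8.19% with SB590885. The 40S members made up 3.36% and 3.37%, and the 60S members 4.78% and 4.82%. The totals differed by 0.0423 percentage points, which became 0.0639 to 0.0921 with background correction at offsets of 16 and 1, median centring or averaged probes. At the second probes the difference was 0.701, but that is a share of another total, 32 members among the 2631 genes with 2 or more detected probes. All these are shares of array signal, not of mRNA. The sorted intensities of both arrays are equal to within 0.129 units, which limits how far the share of a bright group can rise. In such bulk samples fewer cells of a kind and less RNA per cell cannot be told apart.

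The spread of ratios was narrow where the probes were bright. Among the 37 members with a mean intensity of 10000 or over the SD of log2 ratios was 0.0708 and no ratio left the range from -0.17 to 0.14, while the 42 other genes in that band had an SD of 0.147. From 5000 to 10000 the SD was 0.149 for 15 members and 0.202 for 118 other genes, and from 1000 to 5000 it was 0.232 for 14 members and 0.282 for 1252 other genes. Under 1000 the order was the other way, with 0.271 for 7 members and 0.240 for 8945 other genes. The 7 include RPL36A (-0.67), while the rest of them ran from -0.17 to 0.15. The SD without RPL36A was not computed. Across the 73 members the size of the log2 ratio was smaller at higher mean log2 intensity (Pearson r = -0.41, Spearman rho = -0.43), a description over genes that share both arrays. The signed ratio had r = 0.11 and rho = -0.04. Because the sorted intensities of both arrays are equal to within 0.129 units, a ratio records how far a probe moved in the ranking of the array.

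**Figure D2:**
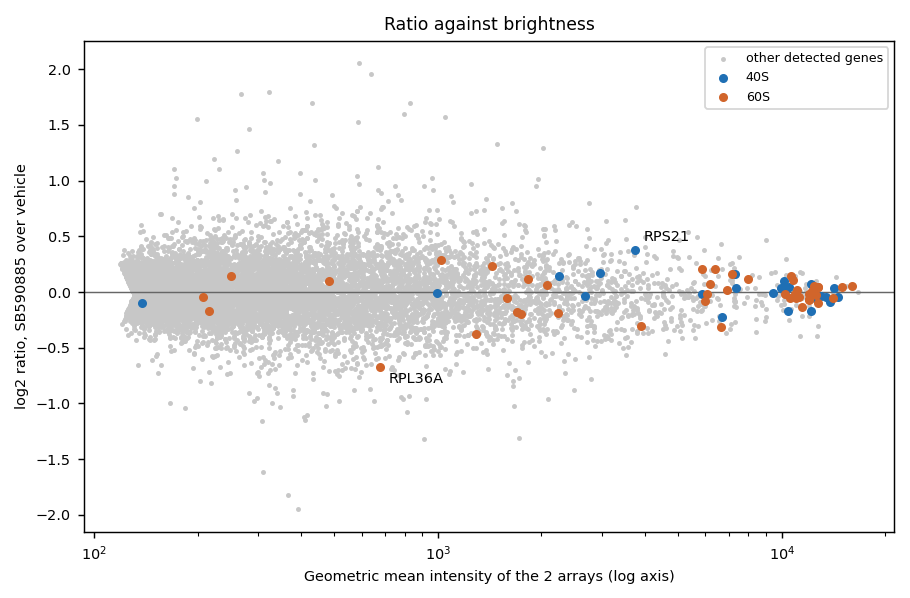
log2 ratio, SB590885 over vehicle, against the geometric mean intensity of the 2 arrays (log axis) for the 40S genes (blue), the 60S genes (orange) and all other detected genes (grey). The 37 members at 10000 and over stay within -0.17 and 0.14, and RPL36A at -0.67 and RPS21 at 0.38 are the outermost members.

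The small subunit proteins were measured by 27 detected genes, of which 12 were higher and 15 lower, with a median log2 ratio of -0.01 and a range from -0.23 to 0.38. RPS21, a small protein of the 40S subunit, was the highest member of all. It had 3273 units with vehicle and 4261 with SB590885, a log2 ratio of 0.38, and has a single detected probe. RPS26, which lies at the mRNA exit channel, had 2800.1 and 3143, a log2 ratio of 0.17. RPS18, a head protein of the 40S subunit, had 6903 and 7739, also 0.17.

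RPS4X, an RNA-binding protein of the 40S body encoded on the X chromosome, was the lowest small subunit gene, with 7251 with vehicle and 6194 with SB590885. Its log2 ratio was -0.23, and its second probe had -0.15. RPS6, the protein phosphorylated by S6 kinases and RSK, had 12712 and 12269 units, a log2 ratio of -0.05, and 0.13 at its second probe. RPS3, which sits at the mRNA entry channel, had 9475 and 9420.4, a ratio of -0.01. RPS19, the gene most often mutated in Diamond-Blackfan anaemia, had 12395 and 12610.3, a ratio of 0.02. At their brightest probes these 3 genes were within 1.1-fold.

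The large subunit proteins were measured by 46 detected genes, of which 21 were higher and 25 lower, with a median log2 ratio of -0.02 and a range from -0.67 to 0.29. Single genes spread with an SD of 0.171 in the 60S group and 0.121 in the 40S group, and the difference between the subunits was not tested. The 60S group holds RPL36A, at -0.67, and its next lowest gene had -0.38. The 4 members past 1.2-fold lower were large subunit genes, to which 46 of the 73 members belong. With background correction 6 were past it, among them the 40S gene RPS4Y1 (-0.32).

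RPL36A, a zinc-binding protein near the exit site of the large subunit and encoded on the X chromosome, was the lowest member. Its detected probe had 854.8 units with vehicle and 537.3 with SB590885, which is 1.59-fold lower (log2 ratio -0.67), and 1.72-fold lower with background correction. Of all detected genes, 0.777% had a lower ratio. The gene's other probe was not detected (113.4 and 114.6), so the difference rests on 1 probe. RPL36AL, an intronless copy that encodes a nearly identical protein, had 6783 and 7584 units, a log2 ratio of 0.16 at its brighter probe and 0 at the other.

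RPL23A, a protein of the peptide exit tunnel's rim where chaperones and the signal recognition particle dock, had 1468 units with vehicle and 1129 with SB590885, a log2 ratio of -0.38. RPL4, whose long loop lines the exit tunnel, had 7437 and 5972, a ratio of -0.32. RPL7A, an rRNA-binding protein, had 4339 and 3517, a ratio of -0.30. Each of the 3 has 1 probe only. Among the next lowest, RPL7 had 2386 and 2088 units (-0.19), and RPL29, a heparin-binding protein, had 1802 and 1593 (-0.18) with -0.27 at its second probe.

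At the high end, RPL14 had 923.0 units with vehicle and 1126 with SB590885, a log2 ratio of 0.29, and its second probe had 0.45. It is the single member whose 2 probes were both past 1.2-fold in 1 direction. RPL34 had 1324 and 1560.4 units (0.24, second probe 0.06). RPL13A, which also acts in the interferon-gamma-induced GAIT complex, had 5441 and 6276 (0.21, single probe). RPL36 had 5975 and 6885 (0.20, second probe 0.25).

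**Figure D3:**
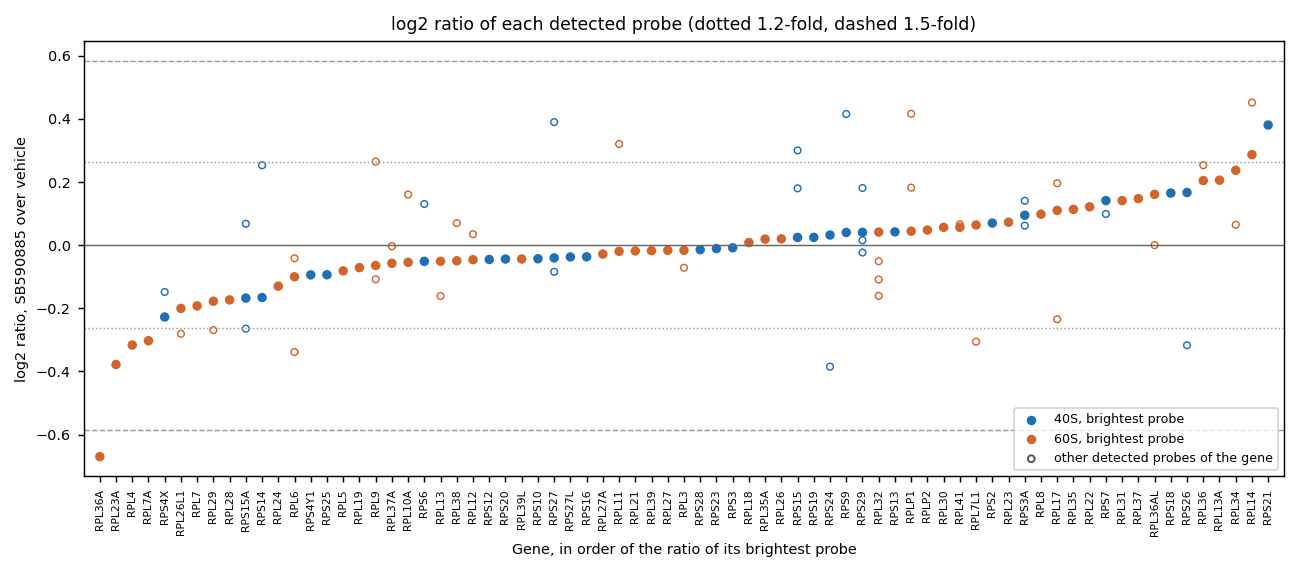
log2 ratio, SB590885 over vehicle, of each detected probe, with genes ordered by the ratio of their brightest probe (filled, blue for 40S and orange for 60S) and their other detected probes as open circles. Dotted lines mark 1.2-fold and dashed lines 1.5-fold. RPL36A alone passes 1.5-fold, and open circles lie on the other side of 0 from the filled one in many genes, among them RPS24, RPS26, RPS27 and RPL11.

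Some members have roles beyond building the ribosome. RPL5 and RPL11 bind 5S rRNA and, when assembly fails, block MDM2, the ligase that degrades p53. RPL5 had 6165 units with vehicle and 5826 with SB590885 (-0.08). RPL11 had 11097 and 10948 (-0.02), and 0.32 at its second probe. The acidic stalk proteins RPLP1 (12550.2 and 12941) and RPLP2 (14694 and 15189), which recruit elongation factors, had log2 ratios of 0.04 and 0.05. RPL3, at the peptidyl transferase centre, had 11010.4 and 10886 (-0.02). RPL22, an RNA-binding protein often frameshifted in microsatellite-unstable tumours, had 1751 and 1905 (0.12). Its copy RPL22L1 was near background on both arrays (117.4 and 122.9).

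Of 10 listed copies of ribosomal proteins, 6 were detected, 2 higher and 4 lower, with a median of -0.04. RPL26L1 was lowest, with 1871 and 1628 units, -0.20 and -0.28 at its second probe. RPS27L, a p53 target gene, had 2717 and 2647 (-0.04). RPL7L1 had 2037 and 2129 (0.06), and its second probe -0.31. The parent genes RPL26 and RPS27 had 0.02 and -0.04. Copies and parents have similar sequences, and whether their probes bind both transcripts was not tested.

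Of 17 measured genes mutated in Diamond-Blackfan anaemia, a congenital failure of red cell formation, 10 were higher and 7 lower, none past 1.2-fold, with a median of 0.02. Of 21 detected members that host small nucleolar RNAs in their introns, 9 were higher and 12 lower, with a median of -0.02. Past 1.2-fold lower were RPL23A, RPL4 and RPL7A, which is 14.3% of the hosts, near the 10.5% of all detected genes.

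Several probes for 1 gene measure it repeatedly within an array, though they can read different transcripts. Among 32 members with 2 or more detected probes, the ratios shared 1 sign in 16 (50%, exact 95% binomial interval 31.9% to 68.1%), against 60.4% of 2631 such genes on the whole array. The rule asks for 1 sign at every detected probe, of which RPL32 and RPS29 have 4. Members and other genes were not matched on probe number. RPL36AL, with 0.16 and 0, counts as not sharing a sign. The log2 ratios of a member's 2 brightest probes differed with an SD of 0.215, against 0.247 over all such genes. Over the 32 genes these ratios had r = 0.28 and rho = 0.19, against r = 0.49 over all 2631 genes, with genes sharing both arrays.

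RPS26, at 0.17, had -0.32 at its dimmer probe (264.4 and 212.3 units). RPS27, a zinc-finger protein, had -0.04 and -0.08 at its bright probes and 0.39 at its dimmest, from 3640.2 to 4770 units. RPS24, at 0.03, had -0.39 at its second probe, annotated to another transcript of the gene (4305 and 3296). RPS14, a protein of the 40S platform, had -0.17 at one probe and 0.25 at the other, and RPL17 had 0.11, 0.20 and -0.23. The probes of RPS14 are also annotated to different transcripts, as is the -0.23 probe of RPL17 against its others. In these 5 genes the sign depended on the probe.

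In 22 of the 32 genes the second probe's ratio was larger in size than the first's, which held for 1109 of the 2631 such genes on the whole array. RPLP1 had 0.04 at its brightest probe, 0.18 at the next (9180.4 and 10417 units) and 0.42 at the dimmest (1264 and 1687). RPS9, a 40S protein at the mRNA entry channel, had 0.04 at its brighter probe and 0.42 at the other (4492 and 5992). Over all 117 detected probes of the members, the SD was 0.0931 for 53 probes at 8000 units and over and 0.234 for 64 below. Of these 117 probes, 57 had ratios above 0 and 59 below, with 9 and 11 past 1.2-fold. Of all detected genes, at their brightest probes, 10.4% and 10.5% were past it, and the share over all detected probes was not computed.

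Several annotated pseudogenes of these proteins, left out by the rule, had detected probes. Of 20 such genes 16 were detected, 14 of them on both arrays. Of these 14 genes 12 were higher and 2 lower, with a median of 0.09. RPL23AP32 had 296.8 and 395.8 units (0.42), RPL23AP53 166.0 and 217.0 (0.39) and RPL21P28 3667 and 4411 (0.27). Of 5 probed RPL23A pseudogenes detected, RPL23AP87 alone was lower (-0.09), where RPL23A itself had -0.38. The lowest was RPL13AP3 (-0.10), with RPL13A at 0.21. RPL29P2 and RPL32P3 were detected with SB590885 only (132.0 and 130.6 units), below the lowest detected vehicle intensity of 132.2, so no direction is given for them. Which transcript such a probe reads was not tested.

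Other genes of protein synthesis, from lists chosen with earlier results of these data known, give the surroundings of these ratios. FAU, which encodes the 40S protein eS30 fused to a ubiquitin-like protein, had 7739 and 8456 units (0.13). RACK1 was not analysed here. Of 14 detected genes with other TOP mRNAs, 5 were higher and 8 lower, with a median of -0.03. Elongation factor EEF1A1 stood at the top of the scale on both arrays, EEF1G had -0.30, EIF4B -0.18 and the histone chaperone NAP1L1 -0.70 (1382 and 848.0 units), while HNRNPA1, EIF3L and EEF1B2 had 0.32, 0.31 and 0.13. NAP1L1 was the only gene of the 14 past 1.5-fold, where 1.16% of all detected genes were lower and 1.51% higher by that rule.

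Initiation factors load mRNA and the first tRNA on the 40S subunit. Of the 26 on this list, all detected, 18 were lower and 8 higher, with a median log2 ratio of -0.22. The list leaves out EIF4B, EIF3E, EIF3F, EIF3H and EIF3L, counted above with the TOP mRNAs. These had -0.18, -0.07, -0.06, -0.04 and 0.31, so EIF3L was 1.24-fold higher. By the 1.2-fold rule 11 of the 26 were lower (42.3%) and none higher, against 10.5% and 10.4% of all detected genes. None of the 26 reached 1.5-fold. EIF3J had 612.0 units with vehicle and 410.2 with SB590885 (-0.58), EIF3M 4292 and 2896 (-0.57) and EIF3A 1647 and 1151 (-0.52). EIF3G (0.13), EIF3C (0.10) and EIF4G2 (0.08) were the highest of the 26. For the 9 factors with a second detected probe that probe's median was -0.07, with 5 lower. The difference between initiation factors and ribosomal proteins was not tested.

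Of 13 chaperones and importers of ribosomal proteins, 5 were higher and 8 lower, with a median of -0.05. Past 1.5-fold, 4 of the 13 were lower and none higher, against 1.16% and 1.51% of all detected genes. The 4 were NAP1L1, BCCIP (2875 and 1874 units, -0.62), and the import receptors TNPO1 (410.0 and 271.9, -0.59) and IPO5 (369.4 and 245.1, -0.59). RPS19BP1, which binds RPS19, had 0.32, AAMP 0.29 and GRWD1 0.17. Of 23 detected subunit assembly factors, 11 were higher and 12 lower, with a median of -0.03. Past 1.5-fold, 1 of the 23 was higher and 1 lower, against 1.51% and 1.16% of all detected genes. RRS1, which loads the 5S particle, had 436.7 and 671.2 units (0.62), and BRIX1 and NSA2 had 0.48 and 0.28. SBDS, which helps remove the anti-association factor EIF6, had 768.8 and 454.1 (-0.76), NIP7 -0.37 and PNO1 -0.20.

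Of 13 kinases and regulators of RPS6 and of TOP mRNAs detected on both arrays, 2 were higher and 11 lower, none past 1.5-fold, with a median of -0.08. RHEB, the GTPase that activates mTOR, had -0.45, TSC1 -0.42 and MTOR -0.37. RPS6KB1, the main S6 kinase, had -0.12. EIF4EBP1 (0.15) and TSC2 (0.16) were the higher genes. The RSK gene RPS6KA2 was detected with SB590885 only (139.3 units) and has no ratio. The 76 mitochondrial ribosomal protein genes, which build a separate ribosome, had a median of -0.04, with 35 higher and 41 lower, and 12 higher (15.8%) and 8 lower (10.5%) by 1.2-fold, against 10.4% and 10.5% of all detected genes. Their lowest were MRPS35, MRPL45 and MRPL39 (-0.58, -0.52 and -0.46) and their highest MRPL28, MRPL4 and MRPL36 (0.48, 0.40 and 0.39).

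**Figure D4:**
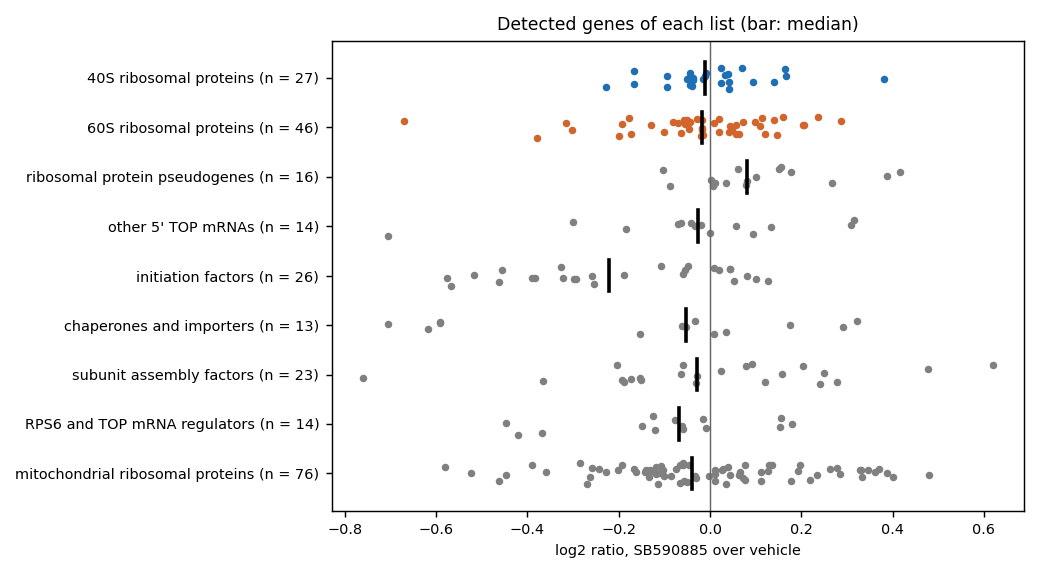
log2 ratio, SB590885 over vehicle, of the detected genes of each list, 1 point per gene (jittered vertically), with the median as a black bar. The 27 genes of the 40S and 46 of the 60S subunit have medians of -0.01 and -0.02, the 26 initiation factors -0.22 and the 16 pseudogenes, 2 of them detected on 1 array only, 0.08.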

How the data were processed

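Total RNA of 2 HCT116 cultures was labelled with biotin after amplification, per the labels' protocols. The authors deposited 3 tables of linear intensities for 47318 probes. No source used here names the software or the normalization method. The deposited normalized table carries a detection p-value per probe and array, and its values equal the series matrix. The deposited "non-normalized" intensities are those values multiplied by 1.025, with no raw signal, so the authors' normalized intensities were used in place of raw signals, and background is left in them. The log2 ratios were computed here from these deposited intensities.

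Probes were named through platform annotation (30111 probes with 1 gene, 8 with several left out), with symbols updated by Entrez identifier for 30072. A gene not detected on 1 array was set at no less than that array's lowest detected intensity (132.2 vehicle, 129.8 SB590885) for the fold rules. Background correction used neqc of limma 3.58.1 (offset 16) in R 4.3.3 on the normalized table; other steps used pandas 2.3.3 and scipy 1.17.1. The ratio and size rule were tested on simulated data. Array number limits the precision, since each condition has 1 array.

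Genes named are the 8 highest and 8 lowest members, the 5 brightest and 5 dimmest, any past 1.5-fold, the stalk, 5S and copy lists, fixed single genes, the 5 with the widest probe disagreement and 3 per direction of each related list; others were chosen after their values were seen. Members and lists were chosen with earlier results of these data known. Protein length was not used here.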

Additional observations from a re-analysis of the deposited data

How the results depend on the processing

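No paired analysis was possible because each condition has 1 array. Of 78 values for the 7 main results under 12 alternatives, 67 stayed within their counting interval or within 1.5 times. Medians and the difference in summed intensity also had to keep their sign. For the share of members higher only the interval counted, and that share was 56.25% at the second probe against 45.2%. At the second brightest probe, which 32 members have, the medians of all, 40S and 60S members were 0.0632, 0.0648 and 0.0496. This setting also changes the set of genes, since the same 32 had a median of 0.00408 at their brightest probes. RPL36A has no second detected probe and drops out, so the count past 1.5-fold, which was 0, could not include it. Averaging detected probes turned the 60S median to 0.00136, and the mean in place of the median turned the 40S value to 0.0053. The SB590885 minus vehicle share of summed intensity, 0.0423 percentage points, became 0.0639, 0.0683 and 0.0644 with background correction at offsets of 16 and 1 and with median centring, and 0.0921 with averaged probes. With the second probe it was 0.701, a share of another total, that of the 2631 genes with 2 or more detected probes. The cause was not tested. Every named ratio examined (10 members, added after seeing the data) kept its sign and its side of 1.2-fold under each alternative that could be applied. Of these, RPL36A, RPL23A, RPL4, RPL7A, RPS21 and RPL13A have 1 detected probe, so settings on probe choice could not change them. RPS26 (0.17 and -0.32) and RPS14 (-0.17 and 0.25), outside these 10, changed sign with the probe. The initiation factors, also added, kept 18 or 19 of 26 lower except at second probes (5 of 9). The series matrix and the table deposited as non-normalized repeat the same ratios, so these settings, counted among the 12, could not change a result.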

Other observations

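RPL36A has 14 detected neighbours within 7 places on either side along the X chromosome. Of these 10 were lower with SB590885, with a median log2 ratio of -0.06 and a range from -0.33 to 1.53, so none was as low as RPL36A (-0.67). The detected genes next to RPL36A were TIMM8A before it (-0.05) and GLA, which encodes alpha-galactosidase A, after it (-0.12). HNRNPH2, an RNA-binding protein that follows GLA, had -0.15. With 3 detected members on that chromosome, RPL36A, RPS4X and RPL39 had -0.67, -0.23 and -0.02, and the 337 detected genes there had a median of -0.02.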
